A study of Mus musculus with 15 samples.

Results

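The 45 genes described here encode actin and the proteins that assemble, cap, cut, crosslink and pull on actin filaments or tie them to membranes and nuclei. They were chosen by name for the known function of their products. The rule held no measured value, but earlier results of these data were known when the genes were chosen. All 45 were among the 25101 genes of the count tables, Diap1 through its current symbol Diaph1. They were sorted by the known role of the protein into 9 groups.

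Actin monomers join into polar filaments that grow at the barbed end and lose subunits at the pointed end, and a crawling leukocyte spends this turnover to push its front forward. The Arp2/3 complex makes branched networks at the front, formins and Ena/VASP proteins extend straight filaments, and non-muscle myosin II contracts the rear. Eosinophils, the granulocytes of allergy and helminth infection, crawl from blood into tissue by these means, with integrins linked to actin through talin, kindlin and vinculin.

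The eosinophils were grown from unselected bone marrow cells of BALB/c mice in a culture of 14 days. Stem cell factor and FLT3 ligand, both growth factors of progenitors, were given at 100 ng/mL each on days 0 to 3, and interleukin 5, which drives eosinophil maturation, at 10 ng/mL from day 4 to day 14. Polyadenylated RNA was sequenced in 2 libraries with a stranded kit. Beside them stand 2 count tables of outside data that the submitters re-analysed, 1 library of macrophages and 1 of neutrophils, whose strain, culture and treatment no source used here states.

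The eosinophil libraries held 40306679 and 30465490 counts, the macrophage library 106940777 and the neutrophil library 6390310, so that 3 counts stood for 0.0744, 0.0985, 0.0281 and 0.470 CPM. CPM, the unit of all levels below, is the count of a gene per 1e6 counts of its library. The 10 eosinophil markers summed to 13349 and 13606 CPM in the eosinophil libraries, 3.29 in the macrophage library and 348 in the neutrophil library. The 12 macrophage markers summed to 18406 CPM in the macrophage library and to 6996 and 8489 CPM in the eosinophil libraries. Most were highest in the macrophage library, but not all. Mrc1 (663 and 718 against 575 CPM) and Msr1 (242 and 238 against 31.5 CPM) were higher in both eosinophil libraries. Marco was under 1 CPM in every library. The neutrophil markers separated less well: 12 of them summed to 2466 CPM in the neutrophil library and 2286 and 1988 CPM in the eosinophil libraries, with Mmp9 and Cxcr2 highest in the neutrophil library but Ngp, Retnlg and Ly6g higher in both eosinophil libraries. Stromal markers summed to 4713 CPM in replicate 1 and 1789 in replicate 2, with Dcn, Lum and Thy1 under 1 CPM in both. Xist, which coats the inactive X of female cells, was at 990 CPM in replicate 1 and 0.656 in replicate 2. The labels do not say whether the replicates came from separate cultures or animals, but 2 libraries of 1 cell pool would not differ so in Xist. The replicate spreads given below include this difference between the cells. Because each outside cell type was 1 library from another series, cell type and series cannot be told apart, no p-value was computed, and a difference has no replicate check on that side. In bulk RNA, fewer cells of a type and less RNA per cell cannot be told apart.

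The 45 genes took a larger share of the RNA in the eosinophils than in either outside library. They made up 4.61% of all counts in replicate 1 and 4.99% in replicate 2 (4.80% ± 0.274, SD, n = 2), against 2.93% in the macrophage library and 1.86% in the neutrophil library. The mean eosinophil share was 1.64 times the macrophage share and 2.58 times the neutrophil share. Both gaps were wider than the gap between the eosinophil replicates. The exact 95% binomial interval of the lower replicate, 4.60 to 4.61%, and that of the macrophage library, 2.92 to 2.93%, cover counting error only. All 45 genes stood above 10 CPM in both eosinophil libraries, so that counting error was small for each of them.

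**Figure D1:**
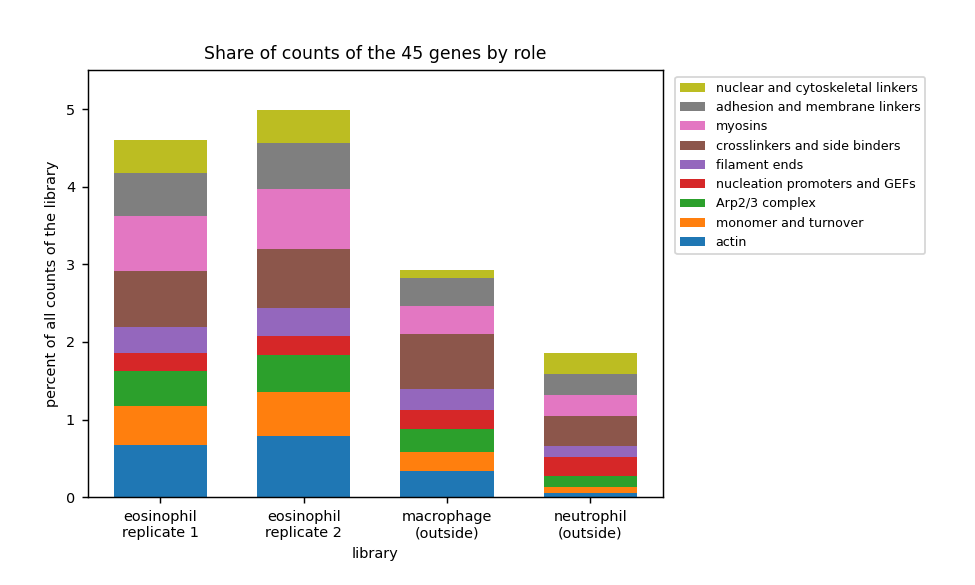
Percent of all counts of each library (y axis) taken by the 45 genes, stacked by role, in the 2 eosinophil libraries and the 2 outside libraries (x axis). The stacks reach 4.61 and 4.99% in the eosinophil libraries, 2.93% in the macrophage library and 1.86% in the neutrophil library, with nucleation promoters and GEFs at like heights in all 4.

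The roles did not share this excess evenly. Relative to the macrophage library the mean eosinophil share was 4.04 times as high for the nuclear and cytoskeletal linkers, 2.20 times for the monomer and turnover proteins, 2.13 times for actin and 2.02 times for the myosins. It was 1.05 times for the crosslinkers and 0.996 times for the nucleation promoters and exchange factors. Relative to the neutrophil library the ratio was 12.1 for actin, 7.81 for monomer and turnover proteins and 3.07 for the Arp2/3 complex, down to 0.978 for the nucleation promoters and exchange factors. Every role except the nucleation promoters and exchange factors thus had a higher share in both eosinophil libraries than in both outside ones. For the crosslinkers the margin over macrophages was small (0.721 and 0.759 against 0.704%). The nucleation promoters and exchange factors had nearly the same share in all 4 (0.226, 0.239, 0.234 and 0.238% in eosinophil replicates 1 and 2, macrophage and neutrophil). Genes within a role differed. Among the nuclear and cytoskeletal linkers Syne1 was at 24.2 times the macrophage level, Plec at 1.13 and Macf1 at 1.77 times. The myosins ranged from 0.707 (Myo1f) to 4.32 times (Myh9).

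Gene by gene, a member was called higher or lower when both eosinophil libraries differed from the outside library by at least 2-fold on the log2(CPM + 1) scale, among genes with 1 CPM or more in any of the 3 libraries compared. All 45 members passed that minimum. Against the macrophage library 15 members were higher and 1 was lower, where 20.6% of the 12745 genes tested were higher and 15% lower. Against the neutrophil library 24 were higher and 1 was lower, where 25.2% of the 12978 genes tested were higher and 22.1% lower. The median log2 difference of the members was 0.58 against the macrophage library and 1.27 against the neutrophil library, beside 0.06 and -0.06 for all genes tested. Both eosinophil libraries were above both outside libraries for 28 members, where the same held for 24.6% of 13200 genes, and below both for 4 members, where it held for 23.5%. The 2 comparisons share the eosinophil libraries. Because the members were chosen with earlier results of these data known, the figures for all genes stand beside them as description only.

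Another scaling changed the first of these counts. With TMM factors in place of library totals the median over all genes moved from 0.06 to -0.15 against the macrophage library and from -0.06 to 0.24 against the neutrophil library. Members higher than in the macrophage library then numbered 10, since Pfn1, Tmsb4x, Actr2, Capza1 and Myl12a fell under 2-fold, and 17.7% of all genes were higher and 19.9% lower. Members higher than in the neutrophil library numbered 28 under TMM, since Iqgap1, Myo1f, Vcl and Msn reached 2-fold, beside 29.7% of all genes higher and 15.7% lower.

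**Figure D2:**
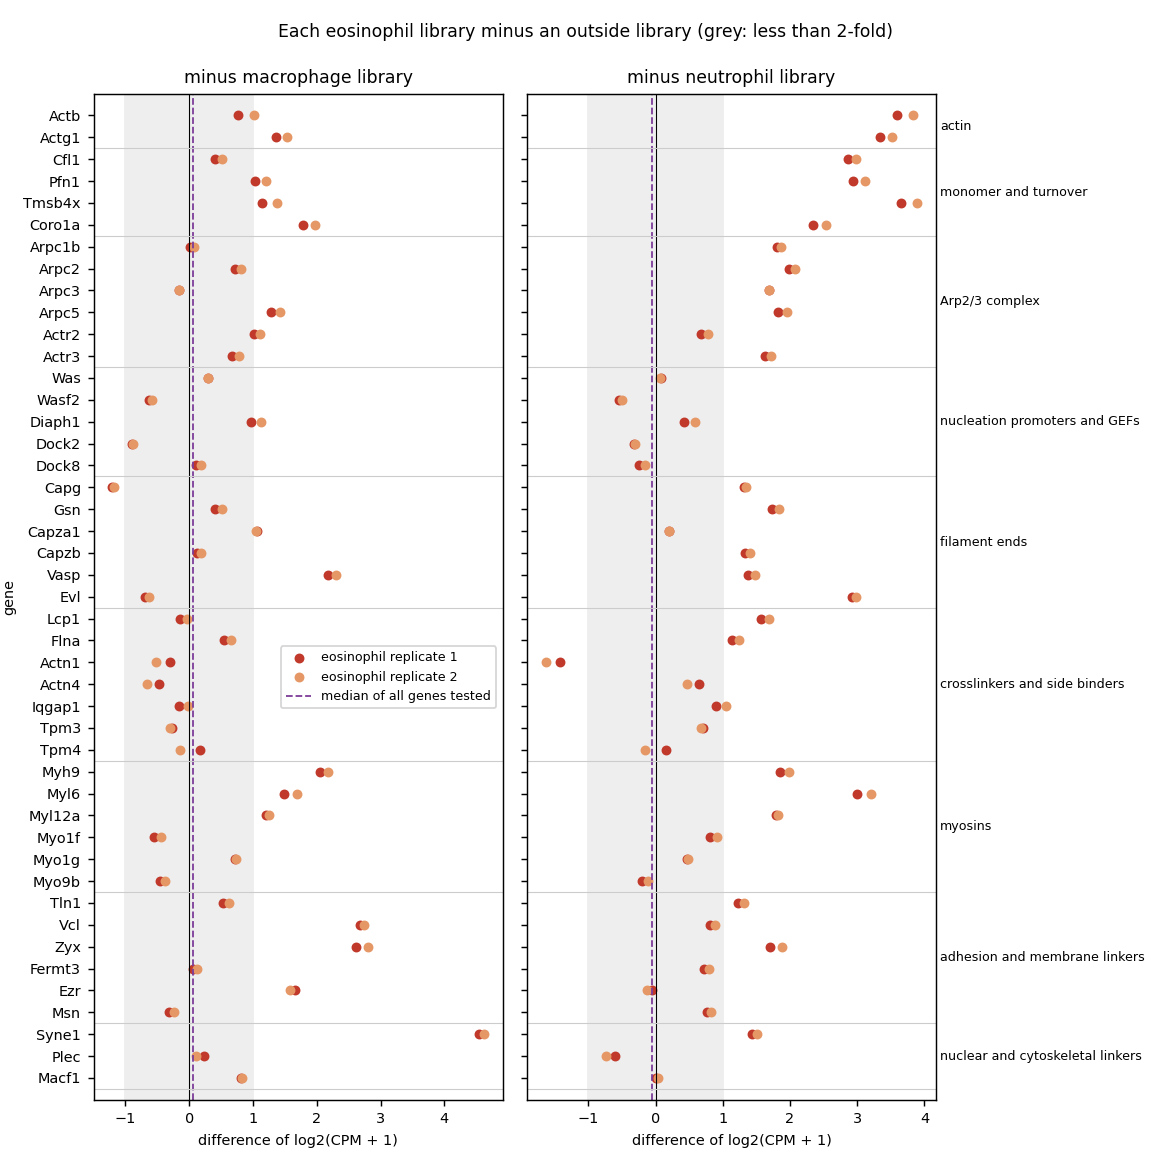
Difference of log2(CPM + 1) between each eosinophil library and the macrophage library (left) or the neutrophil library (right) for the 45 genes (y axis, by role). Points outside the grey band are at least 2-fold, and the dashed line is the median of all genes tested; 15 genes lie right of the band in both libraries on the left and 24 on the right.

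Beta-actin and gamma-actin, the cytoplasmic actins, were both highest in eosinophils. Actb stood at 4011 and 4761 CPM in eosinophil replicates 1 and 2, 2356 in the macrophage library and 333 in the neutrophil library. Actg1 stood at 2762 and 3133 CPM in the eosinophil libraries, 1079 in the macrophage library and 273 in the neutrophil library. For both genes the eosinophil libraries were the highest 2 of the 4 and the neutrophil library was the lowest by a wide margin. The log2 difference was 0.89 (Actb) and 1.45 (Actg1) against the macrophage library, where only Actg1 was called. Against the neutrophil library it was 3.71 and 3.43. Without replicate 1, Actb was also called higher than in the macrophage library. Actins have close copies and processed pseudogenes that can share reads, so both levels are uncertain, as are those of Cfl1, Pfn1, Tmsb4x, Myl6 and Myl12a.

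**Figure D3:**
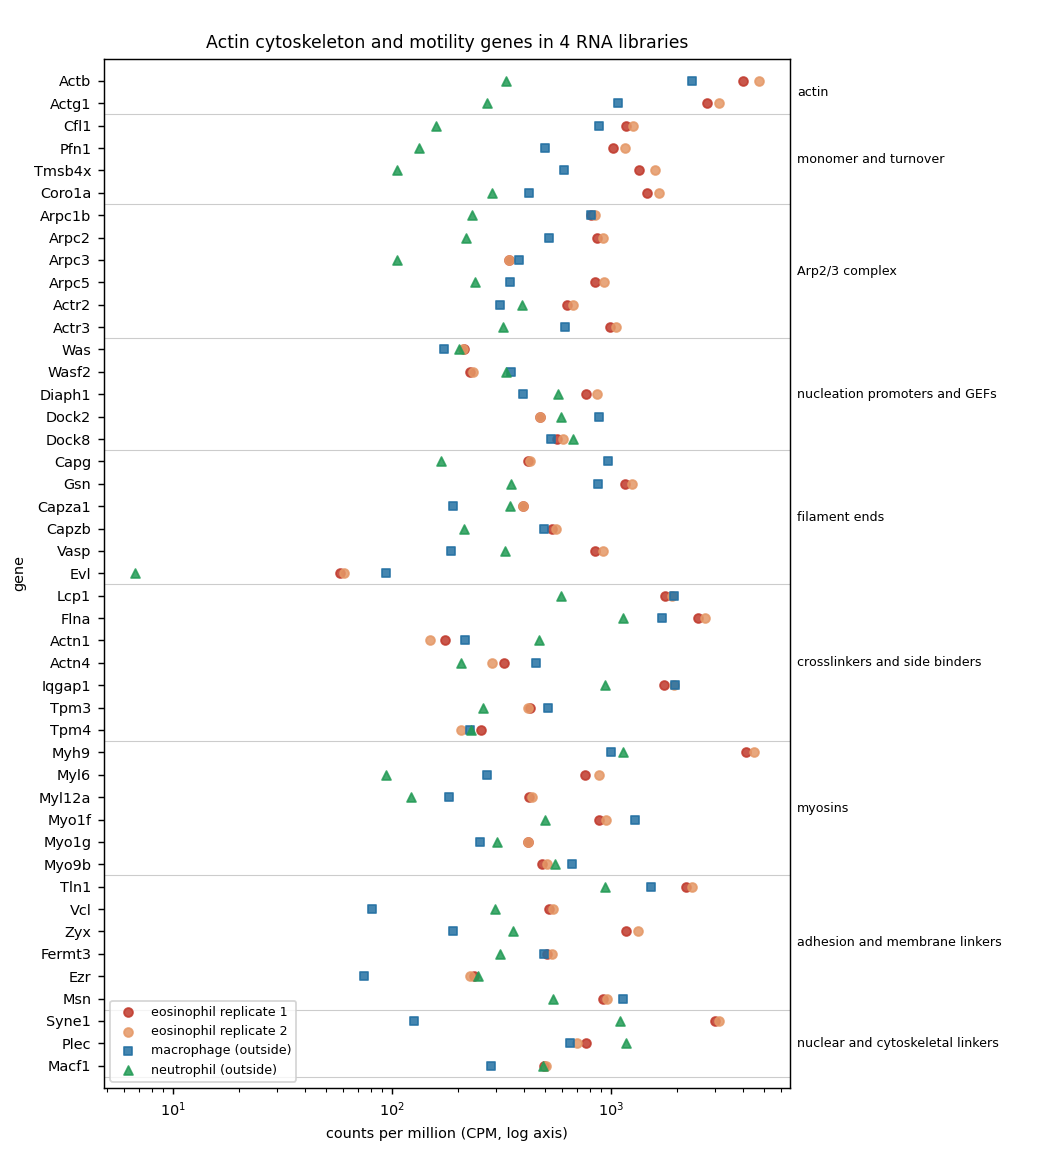
CPM (log axis) of the 45 genes in the 4 libraries, grouped by role. Circles are the eosinophil replicates, squares the macrophage library and triangles the neutrophil library; both circles lie right of the square and the triangle for 28 genes, and the replicates lie close together for nearly all genes.

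Proteins that feed and recycle monomers followed actin. Tmsb4x, thymosin beta-4, which holds monomers in reserve, was at 1347 and 1588 CPM in eosinophils, 614 in macrophages and 106 in neutrophils. Pfn1, profilin, which hands monomers to growing ends, was at 1026 and 1157 CPM in eosinophils, 500.0 in macrophages and 133 in neutrophils. Cfl1, cofilin, which severs old filaments, was at 1172 and 1269 CPM in eosinophils, 886 in macrophages and 160 in neutrophils. All 3 had the order eosinophil, macrophage, neutrophil. Both eosinophil replicates were above both outside values, as they were for 24.6% of 13200 genes. Coro1a, coronin 1A, a leukocyte protein that works with cofilin and Arp2/3, was at 1457 and 1653 CPM in eosinophils, 421 in macrophages and 285 in neutrophils. Its log2 difference was 1.88 against the macrophage library and 2.44 against the neutrophil library. Pfn1 (1.12) and Tmsb4x (1.25) were called higher than in the macrophage library but lost the call under TMM and DESeq2 size factors, and Cfl1 (0.46) was not called. Against the neutrophil library all 4 were called, with log2 differences of 2.44 to 3.78.

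The 6 measured subunits of the Arp2/3 complex, which branches filaments, did not stand in 1 ratio to the macrophage library. Arpc5 was at 850.0 and 930.0 CPM in eosinophils, 348 in macrophages and 239.9 in neutrophils. Actr2, the Arp2 subunit, was at 630.0 and 674 CPM in eosinophils, 310.5 in macrophages and 394 in neutrophils. Arpc1b was at 813 and 850.0 CPM in eosinophils against 808 in macrophages and 233 in neutrophils. Eosinophils were thus above macrophages for Arpc5 and Actr2, which were called (log2 difference 1.35 and 1.07), and level with them for Arpc1b (0.04). Arpc3 lay slightly lower than in the macrophage library (341 CPM in each eosinophil library, 380.2 in macrophages), while Arpc2 (0.77) and Actr3 (0.73) were higher without reaching 2-fold. Against the neutrophil library 5 of the 6 were called, with Actr2 (0.72) the exception.

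None of the 5 nucleation promoters and guanine nucleotide exchange factors (GEFs) was called against either outside library. Was, the Wiskott-Aldrich syndrome protein that switches on Arp2/3, was at 213 and 211 CPM in eosinophils, 172 in macrophages and 202 in neutrophils. Its relative Wasf2 (WAVE2), which acts downstream of Rac, was at 227 and 235 CPM in eosinophils, below 352 in macrophages and 333 in neutrophils. Dock2, a GEF that activates Rac in leukocytes, was at 475 and 477 CPM in eosinophils, 883 in macrophages and 592 in neutrophils. Wasf2 and Dock2 were therefore among the 4 members with both eosinophil libraries lowest of all. The log2 difference of Dock2 against the macrophage library was -0.89, and it was called lower under TMM. Dock8, a GEF for Cdc42, had log2 differences of 0.14 and -0.20. Diaph1, a formin that extends straight filaments, leaned the other way, at 772 and 865 CPM in eosinophils, 396 in macrophages and 576 in neutrophils, and was called against the macrophage library without replicate 1.

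Proteins at filament ends differed within families. Vasp, which shields barbed ends from capping and speeds elongation, was at 848 and 917 CPM in eosinophils, 186 in macrophages and 328 in neutrophils. Its relative Evl was at 57.8 and 60.3 CPM in eosinophils, 93.5 in macrophages and 6.73 in neutrophils. Vasp was thus highest in eosinophils, with log2 differences of 2.24 and 1.42, whereas Evl lay between the outside libraries (-0.66 and 2.96). Capg, a capping protein of the gelsolin family known from macrophages, was the member called lower than in the macrophage library. It was at 420.1 and 429 CPM in eosinophils, 972 in macrophages and 168 in neutrophils. Gsn, gelsolin, which severs and then caps, was at 1158 and 1245 CPM in eosinophils, 871 in macrophages and 349 in neutrophils. Gsn and Capg therefore had opposite orders in eosinophils and macrophages. Capping protein is a dimer of an alpha and a beta chain: Capza1 was called against the macrophage library only (log2 difference 1.06) and Capzb against the neutrophil library only (1.37).

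The 7 crosslinkers and side binders were near the macrophage levels. No crosslinker was called against the macrophage library, and their median log2 difference there was -0.09. Lcp1, L-plastin, which bundles filaments in leukocytes, was at 1763 and 1899 CPM in eosinophils, 1942 in macrophages and 592 in neutrophils. Flna, filamin A, which joins filaments at angles, was at 2508 and 2697 CPM in eosinophils, 1720 in macrophages and 1142 in neutrophils. These were the 2 crosslinkers called higher than in the neutrophil library (log2 difference 1.63 and 1.19). Iqgap1, a scaffold for Rac and Cdc42, was at 1758 and 1936 CPM in eosinophils and 1964 in macrophages, and lay just inside the 2-fold bound against the neutrophil library (939.5 CPM). Actn1, alpha-actinin 1, was the member called lower than in the neutrophil library, with 175 and 150.1 CPM in eosinophils, 216 in macrophages and 469 in neutrophils. Its log2 difference was -1.53 there and -0.41 against the macrophage library. Actn4, the other non-muscle alpha-actinin, was at 326 and 287 CPM in eosinophils, between 454 in macrophages and 208 in neutrophils. The tropomyosins Tpm3 and Tpm4, which coat filaments, had log2 differences between -0.28 and 0.69.

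Among the myosins, the genes called were those of non-muscle myosin II, the motor of contraction. Myh9, its heavy chain, was at 4122 and 4518 CPM in eosinophils, 999 in macrophages and 1138 in neutrophils. Myl6, its essential light chain, was at 765 and 881 CPM in eosinophils, 271 in macrophages and 94.5 in neutrophils. Myl12a, a regulatory light chain, was at 424 and 435 CPM in eosinophils, 183 in macrophages and 122 in neutrophils. All 3 subunits were highest in both eosinophil libraries and were called against both outside libraries, with log2 differences of 2.11, 1.59 and 1.23 against macrophages and 1.92, 3.10 and 1.81 against neutrophils. The call of Myl12a against macrophages was lost under TMM. The single-headed or unconventional myosins Myo1f, Myo1g and Myo9b were called against neither, with log2 differences of -0.50, 0.73 and -0.42 against the macrophage library and 0.86, 0.47 and -0.16 against the neutrophil library. Under TMM Myo1f was called higher than in the neutrophil library.

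Among the adhesion and membrane linkers, the largest differences from macrophages belonged to zyxin and vinculin, which strengthen adhesions under tension. Zyx was at 1175 and 1328 CPM in eosinophils, 190.2 in macrophages and 359 in neutrophils. Vcl was at 521 and 547 CPM in eosinophils, 81.1 in macrophages and 296 in neutrophils. Both were highest in the eosinophil libraries, with a log2 difference of 2.71 for Zyx and 2.70 for Vcl against the macrophage library and 1.80 and 0.85 against the neutrophil library. Tln1, talin, which binds and activates integrins, was at 2204 and 2341 CPM in eosinophils, 1523 in macrophages and 944 in neutrophils, and Fermt3, the kindlin of blood cells, was at 512 and 539 CPM in eosinophils, 493 in macrophages and 310.5 in neutrophils. Tln1 (log2 difference 0.58 and 1.27) was called against neutrophils only and Fermt3 (0.09 and 0.76) against neither. Against macrophages these partners of the integrin tail differed less than zyxin and vinculin did. Of the proteins that tie filaments to the plasma membrane, Ezr, ezrin, was at 238 and 227 CPM in eosinophils, 74.9 in macrophages and 248 in neutrophils. Msn, moesin, was at 918 and 960.0 CPM in eosinophils, 1139 in macrophages and 542 in neutrophils. Ezr was near the same level in eosinophils and neutrophils (log2 difference -0.09) and lowest in macrophages.

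The largest difference of all 45 was that of Syne1, nesprin 1, a giant protein of the nuclear envelope whose long form binds actin. It was at 2979 and 3131 CPM in eosinophils, 126 in macrophages and 1100.1 in neutrophils. Its log2 difference was 4.58 against the macrophage library and 1.47 against the neutrophil library, and it kept both calls under TMM and DESeq2 scaling. By count its rank among all genes was 7 and 11 in the eosinophil libraries, 1982 in the macrophage library and 5 in the neutrophil library, though ranks by count favour long transcripts. Plec, plectin, and Macf1, which bridge actin to intermediate filaments and microtubules, were not called: Plec was at 771 and 704 CPM in eosinophils, 654 in macrophages and 1171 in neutrophils, and Macf1 at 494 and 504 CPM, 282 and 492. Plec was highest in the neutrophil library, and Macf1 was level in eosinophils and neutrophils.

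Read across roles, 11 members were higher in eosinophils than in both outside cell types: Actg1, Pfn1, Tmsb4x, Coro1a, Arpc5, Vasp, Myh9, Myl6, Myl12a, Zyx and Syne1. The same held for 7.77% of the 12523 genes tested in both comparisons. Pfn1, Tmsb4x and Myl12a lost the macrophage call under TMM. Actr2, Capza1, Vcl and Ezr were called against macrophages only. Under TMM Actr2 and Capza1 lost that call, and Vcl was called higher than in neutrophils as well. Another 13 were called against neutrophils only, among them Actb, Cfl1, Gsn, Lcp1, Flna and Tln1, and 16 were called higher or lower against neither.

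The differences of the members from the neutrophil library varied with genomic span, and another gene class was low there too. When the genes tested were cut into 5 equal bins by genomic span, the 7 members in the shortest bin had a median log2 difference of 3.10 against the neutrophil library, and the 16 in the longest bin had 0.67. Over all genes tested the medians of the same bins were 0.20 and -0.11. Genes for cytoplasmic ribosomal proteins, which are short and highly expressed, were at 2.47 and 2.43% of counts in eosinophils, 2.03% in macrophages and 0.376% in neutrophils, and 72 of the 78 that passed the minimum were called higher in eosinophils than in neutrophils. Ribosomal protein genes, like the members of short span, were thus low in the neutrophil library. Over all genes tested, 28.1% of the shortest and 29.4% of the longest bin were called higher in eosinophils than in neutrophils. The shares called lower were 17.0% of the shortest and 28.3% of the longest bin. Transcript length was not available. What part a shared low level had in the differences of Actb, Actg1, Tmsb4x, Pfn1, Cfl1 and Myl6 was not tested. Against the macrophage library the ribosomal protein genes had a median of 0.36 and the members in the shortest and longest bins medians of 1.25 and -0.09.

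**Figure D4:**
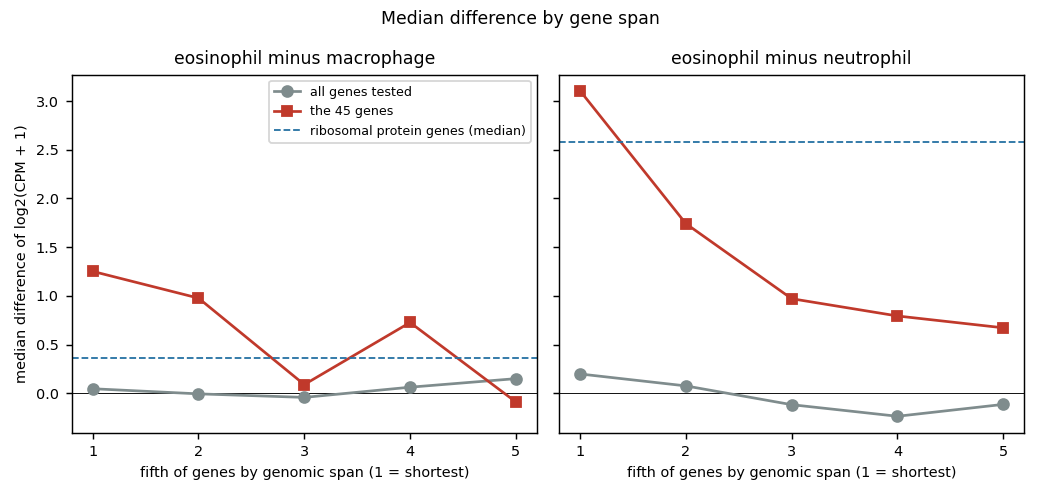
Median difference of log2(CPM + 1) (y axis) in 5 equal bins of genes by genomic span (x axis, from shortest to longest) against the macrophage library (left) and the neutrophil library (right). Squares are the 45 genes, circles all genes tested and the dashed line the ribosomal protein genes; against neutrophils the squares go from 3.10 to 0.67 and the dashed line is at 2.58.

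Which of several related genes a cell used was read as the share of a family's counts, a measure that no scaling between libraries changes. In 14 of 33 families that hold a member the share of a gene differed by 15 percentage points or more between both eosinophil libraries and an outside one, 8 of them against macrophages and 11 against neutrophils. Shares within a family are not corrected for transcript length, so each gene's share is compared only across libraries. The low level of members of short span in the neutrophil library does not cancel within a family. Its part in the shifts against neutrophils was not tested.

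The coronins shifted against both outside libraries. Coro1a took 71.4 and 72.4% of the counts of Coro1a, Coro1b and Coro1c in eosinophils, 27.1% in macrophages and 34.7% in neutrophils. Coro1c, the widely expressed coronin, took 14.7 and 14.5% in eosinophils, 44.2% in macrophages and 39.4% in neutrophils. In the Ena/VASP family, Enah (Mena) took 28.2 and 27.7% in eosinophils, 1.67% in macrophages and 3.95% in neutrophils. Evl took 4.58 and 4.46% in eosinophils, 32.9% in macrophages and 1.93% in neutrophils. Enah thus had its highest share in eosinophils, and Evl in macrophages.

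The gelsolin family shifted between eosinophils and macrophages. Gsn took 73.4 and 74.4% of the gelsolin family in eosinophils, 47.3% in macrophages and 67.5% in neutrophils. Vinculin was set beside its relative Ctnna1, alpha-catenin of cell junctions: Vcl took 68.9 and 72.2% in eosinophils, 20.0% in macrophages and 47.2% in neutrophils. Among the nesprins, Syne1 took 93.5 and 94.2% in eosinophils and 63.8% in macrophages, where Syne3 took 29.8%. In the neutrophil library Syne1 took 72.5% and Syne2 18.6%.

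Class I myosins and Rac exchange factors also shifted. Myo1f took 96.0 and 96.8% of the pair with Myo1e in eosinophils and 97.0% in neutrophils, but 76.9% in macrophages, where Myo1e took 23.1%. Myo1c took 57.9% of the family of Myo1g in macrophages and 29.1 and 26.8% in eosinophils. Dock2 took 64.8 and 65.3% in eosinophils, 83.3% in macrophages and 48.2% in neutrophils, with Dock5 at 29.6 and 29.8, 9.44 and 51.8%. Eosinophils thus stood between the other cell types in the use of Dock5.

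Against neutrophils alone, 6 more families shifted. Actn1 took 34.9 and 34.3% of the non-muscle alpha-actinins in eosinophils and 69.3% in neutrophils. Dstn, destrin, took 19.4 and 18.4% of the cofilin family in eosinophils and 50.8% in neutrophils. Its own level was not higher in neutrophils (289 and 293 CPM in eosinophils, 186 in neutrophils), where Cfl1 was low (160 CPM). Diaph2 took 5.05 and 4.51% of its formin family in eosinophils and 31.5% in neutrophils. Msn (73.5 and 75.4 against 57.3%) and Arpc1b (88.0 and 88.3 against 62.7%) had smaller shares in neutrophils. Iqgap2 took 3.86 and 3.54% in eosinophils and 20.7% in neutrophils. The families of Myh9, Tln1, Wasf2, Pfn1, Lcp1 and Actr3 did not shift: the lowest share of these members was 98.1%, that of Lcp1 in replicate 1.

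**Figure D5:**
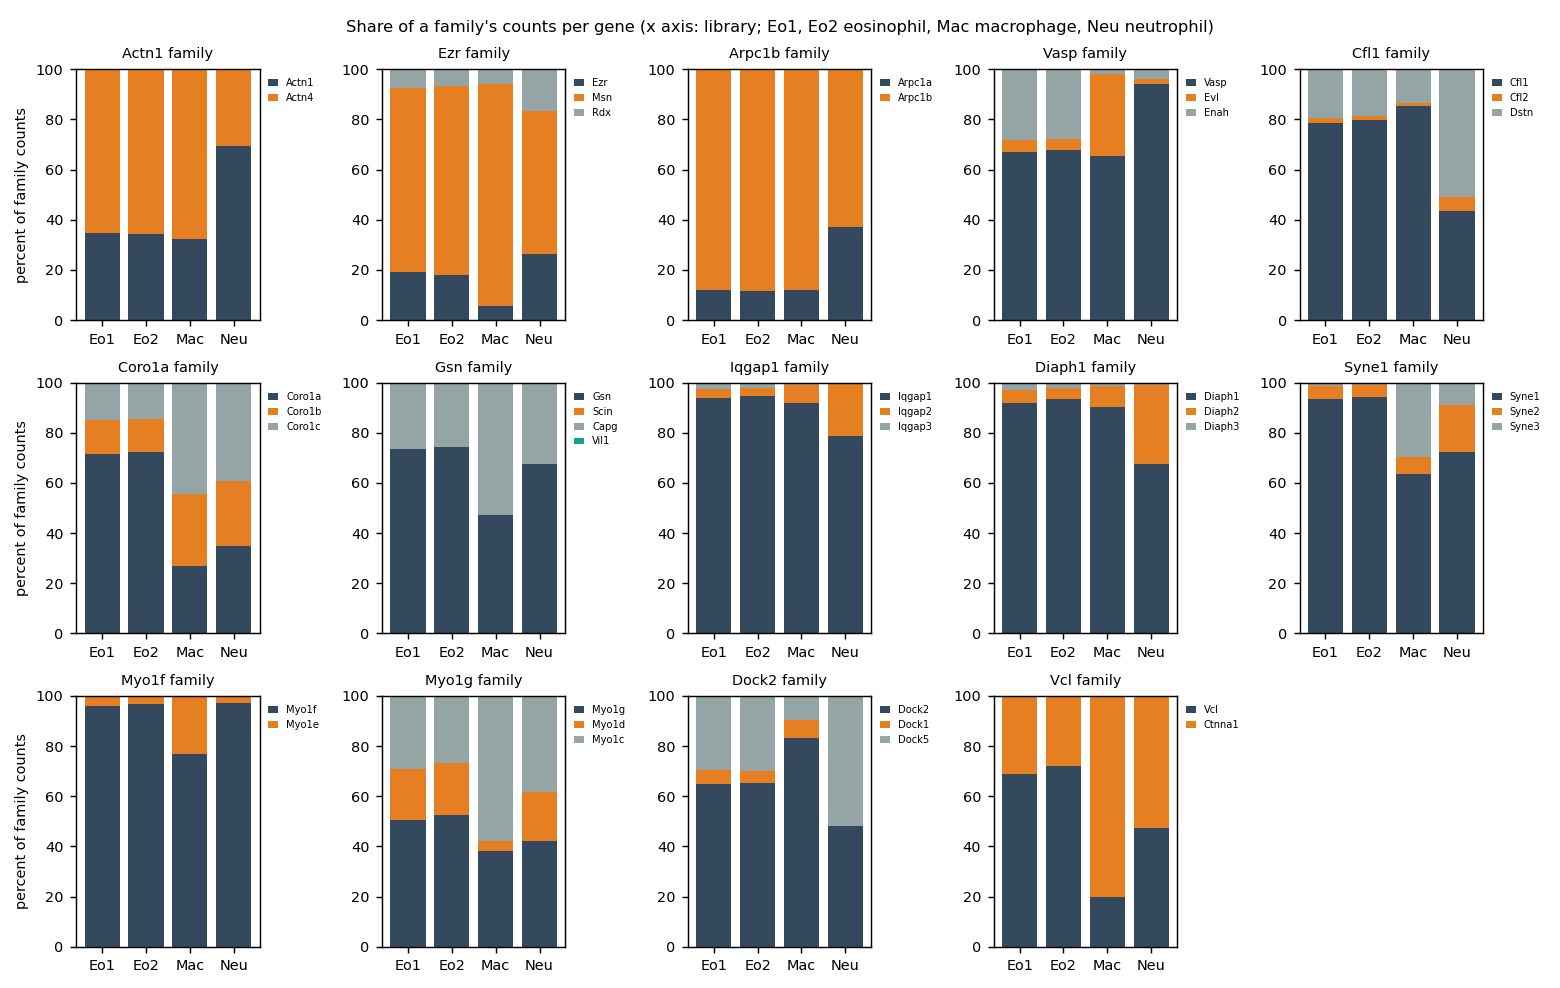
Percent of a family's counts (y axis) taken by each gene in eosinophil replicates 1 and 2 (Eo1, Eo2), the macrophage library (Mac) and the neutrophil library (Neu) for the 14 families with a shift of 15 points or more. The eosinophil replicates nearly coincide in each panel; Coro1a, Enah and Vcl take larger shares in eosinophils than in either outside library.

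Between the eosinophil replicates the members were close. No member differed by 1.5-fold, 36 were higher in replicate 2 and 9 in replicate 1, and the median log2 difference, replicate 2 minus replicate 1, was 0.08 (range -0.31 to 0.25), beside -0.06 over the 11908 genes at 1 CPM or more in both. Of those 11908 genes, 4058 were higher in replicate 2. Actb was 4386 ± 530 CPM (SD, n = 2), the widest spread in CPM, and Arpc3 had the narrowest. The members higher in replicate 1 were Arpc3, Was, Capza1, Actn1, Actn4, Tpm3, Tpm4, Ezr and Plec. The 10 lists of related genes described below, tubulins and muscle genes included, held 151 genes at 1 CPM or more in both libraries. Of these, 17 were at least 1.5-fold higher in replicate 1 and 0 in replicate 2, where 6.75 and 0.487% of all genes were. These 17 included Fermt2 and, from the muscle list, Acta2, Tagln, Myl9 and Tpm2, genes of contractile and stromal cells. The stromal markers were higher in replicate 1 for 10 of 12, counting Dcn, which was under 1 CPM in both. The part of stromal cells in the 17 was not tested.

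The wider actin machinery was read from 8 lists with 150 further genes. Of the 138 that passed the minimum against each outside library, 33 were higher and 19 lower than in macrophages (median log2 difference 0.18), and 46 were higher and 21 lower than in neutrophils (median 0.24). These are 23.9 and 13.8% against macrophages, near the 20.6 and 15% of all genes, and 33.3 and 15.2% against neutrophils, beside 25.2 and 22.1% of all genes. The members' medians of 0.58 and 1.27 stood above these. These counts describe the 4 libraries only.

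Among Arp2/3 activators the counts were small: 2 of 16 were higher and 2 lower than in macrophages, and 4 higher and 4 lower than in neutrophils. Their 12.5% higher than in macrophages lay below the 20.6% of all genes, and their 25.0% higher than in neutrophils near the 25.2% of all genes. Nckap1l, the blood-cell subunit of the WAVE complex, was at 726 and 740 CPM in eosinophils, 1217 in macrophages and 480 in neutrophils and was not called. Abi3, another WAVE complex subunit, was called lower against both, at 9.58 and 10.4 CPM in eosinophils, 30.1 in macrophages and 94.2 in neutrophils. Cttn, cortactin, was called higher against both, but it was among the 17 genes higher in replicate 1 (44.98 and 24.7 CPM).

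Genes that signal to actin differed in both directions. Rac2, the Rac of blood cells, was at 1010 and 1109 CPM in eosinophils, 450 in macrophages and 383 in neutrophils. Arhgef1, a GEF, was at 985 and 1043 CPM in eosinophils, 235 in macrophages and 406 in neutrophils. Both were called higher against both, and Rock1, a kinase that acts on myosin II, was higher than in macrophages (10.8 CPM) and lower than in neutrophils (405 CPM), with 152 and 157 CPM in eosinophils. Pak1, a kinase activated by Rac and Cdc42, was at 25.0 and 17.4 CPM in eosinophils, 96.8 in macrophages and 177 in neutrophils. Vav1, a Rac GEF of blood cells, was at 129 and 118 CPM in eosinophils, 486 in macrophages and 375 in neutrophils. Pak1 and Vav1 were lower in eosinophils against both, as was the formin Fmnl3 at 34.0 and 25.3 CPM against 123 and 215.

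Enah and Mylk were the 2 genes of these lists furthest above the macrophage library. Enah was at 356 and 375 CPM in eosinophils, 4.75 in macrophages and 13.8 in neutrophils, with log2 differences of 5.99 and 4.63. Mylk, myosin light chain kinase, was at 160 and 166 CPM in eosinophils, 2.05 in macrophages and 3.60 in neutrophils, with log2 differences of 5.75 and 5.15. Myl12b, the close copy of Myl12a, was called higher against both as well (1.79 and 2.17). Other genes of the same list went other ways: Myh10, another heavy chain of myosin II (1.11 and 0.16), and Myl6b, another light chain (0.60 and -0.40), were called against neither, and Ppp1r12a, a subunit of myosin phosphatase, was higher than in macrophages (1.75) and lower than in neutrophils (-1.05). Of the 14 genes on that list 5 were higher and 3 lower than in macrophages (20.6 and 15% of all genes), and 5 higher and 2 lower than in neutrophils (25.2 and 22.1% of all genes). Monomer and capping genes gave 6 of 20 higher and 2 lower than in macrophages, and 5 higher and 1 lower than in neutrophils, where 20.6 and 15% (macrophages) and 25.2 and 22.1% (neutrophils) of all genes were. Cotl1, coactosin-like protein, which binds filaments, was called higher against both, at 1337 and 1568 CPM in eosinophils, 571 in macrophages and 215 in neutrophils.

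On the list of adhesion and crosslinking genes 5 of 31 were higher and 5 lower than in macrophages, and 14 higher and 2 lower than in neutrophils. The 16.1% higher than in macrophages lay near or under the 20.6% of all genes, and the 45.2% higher than in neutrophils stood beside 25.2%. Dbnl, an actin binder at the cell edge, was called higher against both (1.80 and 1.20), and Marcks and Lpxn were lower than in macrophages and higher than in neutrophils. Of the 9 nuclear envelope and intermediate filament genes 4 were higher and 0 lower than in macrophages (20.6 and 15% of all genes), and 3 were higher and 1 lower, Syne3, than in neutrophils (25.2 and 22.1% of all genes). Sun2, which anchors nesprins in the nuclear envelope, was at 711 and 723 CPM in eosinophils, 234 in macrophages and 460 in neutrophils. Lmna, lamin A/C, was at 399 and 394 CPM in eosinophils, 160 in macrophages and 2.19 in neutrophils, the largest log2 difference from neutrophils on the lists (6.96).

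Many actin genes carry a CArG box, the site bound by serum response factor (SRF), whose coactivator MRTF-A (Mrtfa) is held back by free actin monomers. Srf was at 167 and 171 CPM in eosinophils, 57.9 in macrophages and 138 in neutrophils and was called higher than in macrophages (log2 difference 1.53). Mrtfa was at 403 and 430 CPM in eosinophils, 214 in macrophages and 294 in neutrophils and was not called. Its relative Mrtfb was lowest in eosinophils, at 63.6 and 63.2 CPM against 118 in macrophages and 93.3 in neutrophils, also not called. Of the 6 SRF pathway factors listed, 2 were higher and 1 lower than in macrophages (20.6 and 15% of all genes). Against neutrophils 0 were higher and 1 was lower (25.2 and 22.1% of all genes). In the promoter table, from RefSeq on GRCm38.p6 with 250 bases before to 50 after each gene start, 42 of the 45 members had a sequence, and Actb, Diaph1 and Plec had none. A CArG box, searched on both strands, was found in 3 of the 42 (7.14%) and in 488 of all 27025 genes with a promoter (1.81%). The 3 are shown because each was called higher than in macrophages, with the box in capitals, 5′ to 3′ on the strand of the gene. The boxes began 90, 227 and 50 bases before the gene start.
Actg1 (chr11:120348536-120348625, minus strand): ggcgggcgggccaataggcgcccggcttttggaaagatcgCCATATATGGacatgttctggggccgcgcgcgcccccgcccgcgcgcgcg
Vcl (chr14:20929148-20929220, plus strand): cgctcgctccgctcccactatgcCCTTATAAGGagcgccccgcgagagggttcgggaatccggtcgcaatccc
Myl6 (chr10:128493010-128493099, minus strand): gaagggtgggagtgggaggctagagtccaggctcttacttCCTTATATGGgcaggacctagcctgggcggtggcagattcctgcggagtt

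The log2 differences of these 3 genes from the macrophage library were 1.45 for Actg1, 2.70 for Vcl and 1.59 for Myl6. The other 12 members called higher than in macrophages, among them Zyx, Myh9 and Vasp, had no box in this window. The core GAGGAA of PU.1, an ETS factor of myeloid cells, was searched on both strands and found in 13 of 42 members (31.0%) and 31.3% of all genes. A match is a description of these letters and shows no binding. Where the deposited peaks of PU.1, open chromatin and histone marks lay relative to these genes was not analysed here, because their genome build differs from that of the gene table.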

How the data were processed

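Per the labels, eosinophils were cultured from BALB/c bone marrow and their messenger RNA was sequenced from libraries that keep the strand. The authors deposited whole-number counts of reads per gene, without normalization, for the 2 eosinophil libraries and for 2 outside libraries. Their cell types, macrophage and neutrophil, come from the definition of the comparison and were checked against markers only. The mm9 build, featureCounts, STAR 2.5, Trim Galore 0.4.2, FastQC 0.11.7 and Picard 1.89 are named in the submitters' processing notes, with no role given. The strand setting of the counting is not stated in the sources used, which makes overlapping genes and close copies uncertain.

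In the outside data, 26 gene names had been changed to dates; these genes were left out, which left 25075, and stayed in the totals. Counts were divided by the table total (CPM) and compared as log2(CPM + 1), with a pseudocount of 1 CPM. Shares carry exact (Clopper-Pearson) 95% binomial intervals, which cover counting error only. No library had fewer than 6390310 counts. Scaling alternatives used TMM factors from edgeR 4.0.16 and size factors from DESeq2 1.42.0 in R 4.3.3; no count model was fitted. The rest was computed in Python 3.11.15 with pandas 2.3.3, scipy 1.17.1 and numpy 2.4.6, and the calling was tested on simulated data. Levels per transcript length were not computed, so ranks and choices by CPM favour long transcripts. Genomic span came from the RefSeq gene table of GRCm38.p6.

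The members and lists were chosen with earlier results of these data known. Every member could be named. Named in full were the 6 members with the highest mean CPM, the 4 largest and 4 smallest differences against each outside library, families with a shift of 15 points or more, and, per list, up to 3 genes of the highest mean level and up to 3 of the largest difference in each direction, from which the text takes examples. Alternatives were other scalings, pseudocount, minimum and fold, and leaving out each replicate. Centring on genes of like span was chosen after seeing the data. The peak lists were not used.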

Additional observations from a re-analysis of the deposited data

How the results depend on the processing

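Members higher than in macrophages numbered 15, and 10 to 17 over the scalings, minimums, pseudocounts and left-out replicates (15 to 17 without either replicate), but 7 at 3-fold. Of all genes 20.6% were higher at 2-fold and 11.9% at 3-fold. Members lower than in macrophages numbered 1, but 2 with TMM factors, 2 when centred on genes of like span (Dock2 joined Capg in both), 3 at 1.5-fold and 0 at 3-fold. Members higher than in neutrophils numbered 24, and 24 to 25 without either replicate; all 24 remained under each scaling, pseudocount, minimum and left-out replicate. At 1.5-fold they numbered 31 and at 3-fold 17, where 33.9 and 16.1% of all genes were higher. Members lower than in neutrophils numbered 1, but 2 at 1.5-fold and 0 at 3-fold, where 22.1, 33.6 and 10.9% of all genes were lower. The share of all counts was 4.80%, and 4.61 to 4.99% without either replicate. It was 5.64% without the 100 most abundant other genes in the total and 4.07% without Actb and Actg1 (2.58% in macrophages and 1.80% in neutrophils). No called difference changed sign. Among single-gene values, 557 moved by less than the replicate spread and 283 by more. The 557 include settings that could not give a larger move. The minimums left each member's value unchanged, and leaving out 1 replicate shifts a mean of 2 by less than their spread. With TMM factors the difference of every member from the macrophage library moved by more than the spread. The 45 genes passed 5 and 10 CPM in both eosinophil libraries. The count of peaks at member promoters and its 5 kb alternative were not run. No paired analysis was possible because no result came from a test. Depth does not limit the members. The limits are 1 library per outside cell type and the low level of ribosomal protein genes and members of short span in the neutrophil library.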

Other observations

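Microtubule and muscle genes were read from lists of their own. Of the 11 tubulin genes 4 were higher than in macrophages and none lower, and 7 of the 10 that passed the minimum were higher than in neutrophils, where 20.6 and 25.2% of all genes were higher. Tuba1b, an alpha-tubulin, was at 520 and 455 CPM in eosinophils, 222 in macrophages and 113 in neutrophils. Tubb5, a beta-tubulin, was at 632 and 531 CPM in eosinophils, 421 in macrophages and 184 in neutrophils. Unlike most actin members, both were higher in replicate 1. Of the 11908 genes at 1 CPM or more in both eosinophil libraries, 4058 were higher in replicate 2. The tubulins together took 0.247 and 0.215% of counts in eosinophils, 0.119% in macrophages and 0.0849% in neutrophils.

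Muscle-type genes were a small part of the RNA, at 0.0329 and 0.0153% of counts in the eosinophil libraries. Acta2, smooth muscle actin, was at 102 and 42.7 CPM in eosinophils, 17.8 in macrophages and 74.0 in neutrophils, and Tagln, transgelin, at 65.1 and 28.0 CPM in eosinophils, 12.5 in macrophages and 16.1 in neutrophils. Both were more than 1.5-fold higher in replicate 1, as were the stromal collagens Col1a1 (807 and 189 CPM) and Col1a2 (1040 and 291 CPM). Among megakaryocyte markers, the integrin chains Itga2b (307 and 310 CPM) and Itgb3 (268 and 285 CPM) were high in eosinophils. Pf4 was at 87.6 and 104 CPM in eosinophils and Gp6 under 1 CPM, and 6 of the 10 markers of that list reached 1 CPM in both libraries.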
